A study of Mus musculus with 2 samples.

Results

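Cell death regulators are the receptors, adaptors, proteases, pore-forming proteins and antioxidant enzymes that decide whether an injured cell dies and by which route. Chromatin accessibility over 29 of them was compared here between a sham-operated and a stroke mouse brain library. The 29 genes were chosen by name as regulators of apoptosis, necroptosis, pyroptosis, ferroptosis and the p53 response, out of 21728 protein-coding genes on chromosomes 1 to 19 and X, and all 29 were found in the annotation. For each gene, deposited fragments that overlapped the gene body or the 2 kb upstream of its start site were counted and divided by all fragments of the same nuclei, with the result given per 1000000 fragments (CPM).

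In apoptosis, death receptors such as Fas signal through the adaptor FADD to the initiator caspase-8, while the BCL2 family controls release of cytochrome c from mitochondria and with it APAF1 and caspase-9. Necroptosis runs through RIPK1, RIPK3 and the membrane-rupturing MLKL, and pyroptosis through the pore-forming gasdermins. Ferroptosis is death by lipid peroxidation, which GPX4 prevents with glutathione made from the cystine that SLC7A11 imports, and each of these routes has been described in the ischemic brain.

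The assay was single-cell ATAC-seq, in which the Tn5 transposase cuts open chromatin and the cut fragments carry the barcode of their nucleus. Both libraries came from young adult male C57BL/6J wild-type mice, and no transgene was involved. The sham library pooled the brains of 4 sham-operated mice, and the stroke library pooled the ipsilateral hemispheres of 4 mice taken 48 h after a passing occlusion of the middle cerebral artery followed by reperfusion. Olfactory bulbs and cerebellum were left out of the tissue. Each condition thus had 1 library, no p-value can be given, and stroke, library and sampled region cannot be told apart. Every interval in the text is an exact 95% interval that covers counting error only, and "higher" or "lower" past the threshold means at least 1.5-fold with at least 50 fragments in both libraries together.

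Nuclei were kept where the barcode was called as a cell and over 20% of its fragments lay in peaks. This kept 6817 of 6979 called barcodes in sham but 5054 of 8740 in stroke, with 73449269 and 52773775 fragments and medians of 10353 and 9898 fragments per nucleus. The median share of fragments in peaks of kept nuclei was 38.8% in sham and 33.2% in stroke. Nuclei were assigned to classes by the accessibility of marker genes, which left 57.4% of sham and 53.1% of stroke nuclei unassigned. The leading genes of the unassigned nuclei included Slc17a7, an excitatory neuron marker, so the excitatory neuron-like class need not hold all such nuclei. The classes held 396 and 576 astrocyte-like, 600 and 254 excitatory neuron-like, 564 and 237 striatal spiny projection neuron-like, 707 and 458 interneuron-like, 128 and 122 oligodendrocyte precursor (OPC)-like, 115 and 189 oligodendrocyte-like, 151 and 220 vascular-like and 24 and 247 myeloid-like nuclei in sham and stroke. In each of these classes the marker list of that class had the highest summed level of the class lists. The gate assigned nuclei by these same lists, so this is no separate check of the class names. One further class, led by Zic4, Sytl3, Htr2c and Clic6, was left unnamed and not compared. In all kept nuclei a difference between the libraries can come from another mixture of cell types as well as from another level within them, and these cannot be told apart there.

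Most of the 29 regulators had similar accessibility in sham and stroke nuclei, and 3 stood higher in stroke: Casp8, Fas and Slc7a11. All 29 had at least 50 fragments. The 3 higher members were 10.3% of the list, against 8.98% of the 20028 protein-coding genes that reached 50 fragments, so the share lay near the background. None of the members was 1.5-fold lower, against 0.300% of all genes. The median log2 ratio of stroke over sham was 0.04 for the members and -0.04 for all genes.

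**Figure D1:**
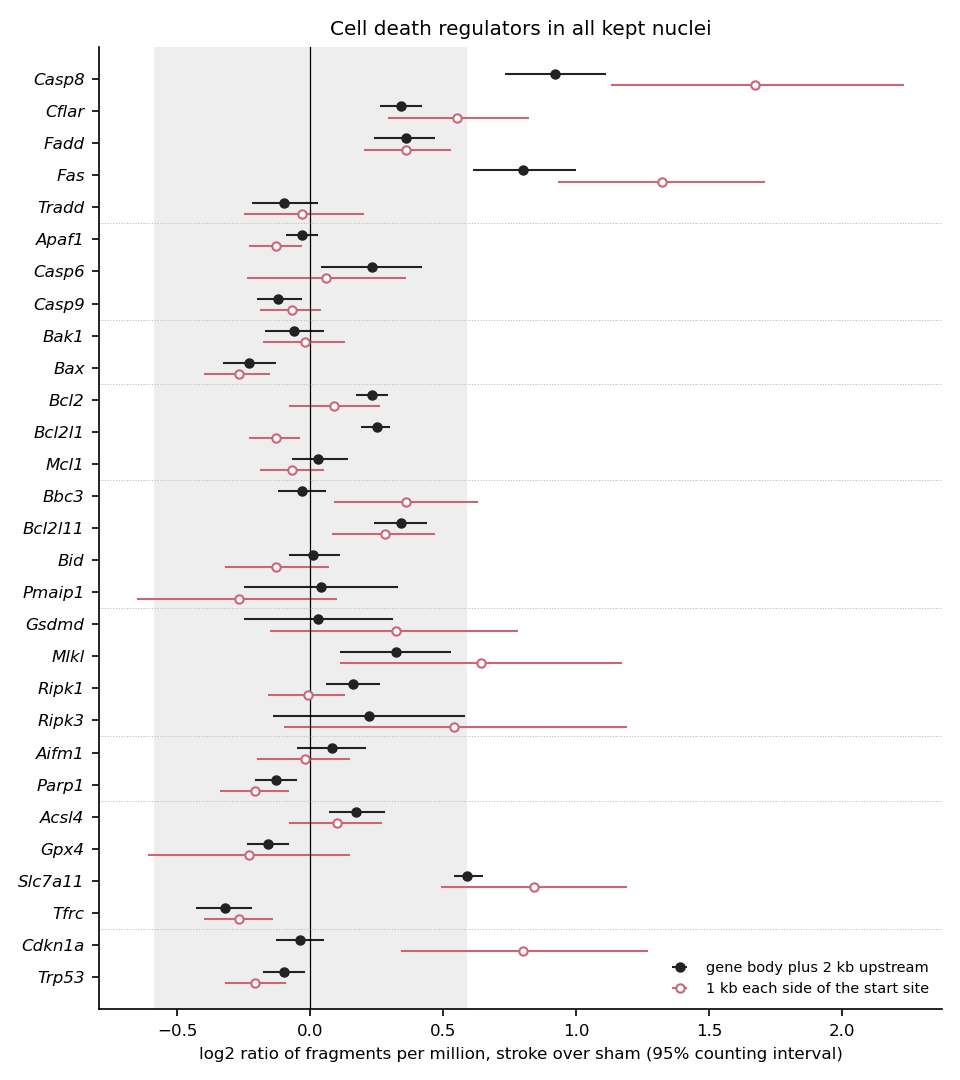
Log2 ratio of CPM, stroke over sham, for the 29 regulators in all kept nuclei, grouped by role. Filled points are the gene body plus 2 kb upstream, open points are 1 kb on each side of the start site, bars are 95% counting intervals, and the grey band holds ratios under 1.5-fold. Casp8 and Fas lie right of the band on both measures, at 0.92 and 0.80 for the gene body window.

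Among the death receptor genes, Casp8 (caspase-8, the protease that death receptors activate) had 5.38 CPM in sham and 10.2 CPM in stroke, from 395 and 537 fragments, a ratio of 1.89 (1.66 to 2.16). Fas, the receptor for Fas ligand, had 5.42 CPM in sham and 9.46 CPM in stroke, a ratio of 1.74 (1.53 to 2.00). The libraries' intervals did not overlap for either gene. Casp8 lies at chr1:58795374-58847503 and Fas at chr19:34290666-34327772 of mm10, both on the plus strand, and neither window overlaps another annotated protein-coding gene.

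The other members of this group were closer between the libraries. Fadd, the adaptor that joins the receptor to caspase-8, had 16.4 CPM in sham and 20.9 CPM in stroke (ratio 1.28, 1.18 to 1.39). Cflar, which encodes the caspase-8 brake cFLIP, had 39.6 and 50 CPM (ratio 1.26, 1.20 to 1.33). Tradd, the adaptor of TNF receptor 1, had 16.6 and 15.5 CPM (ratio 0.936, 0.856 to 1.02), and its interval included 1. Fadd and Cflar thus lay above 1 by more than counting error but under the threshold.

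At the start sites the differences of Casp8 and Fas were larger than over the whole genes. Within 1 kb of the start, Casp8 had 0.572 CPM in sham and 1.82 CPM in stroke, and Fas had 1.18 and 2.96 CPM. The log2 ratios of these start-site windows were 1.67 (1.13 to 2.23) and 1.32 (0.93 to 1.71), while the median over all start sites was -0.10. The single 500 bp bin centred on the Casp8 start held 15 sham and 56 stroke fragments, 0.204 and 1.06 CPM, a ratio of 5.20 (2.90 to 9.89). In the Fas start bin the values were 0.735 and 1.91 CPM from 54 and 101 fragments, a ratio of 2.6 (1.85 to 3.69). Both bins therefore stood higher in stroke, and a further Casp8 bin 7 kb into the gene, where RefSeq places the start (7128 bp downstream of the annotated one), had 0.0817 CPM in sham and 0.550 CPM in stroke from 6 and 29 fragments, fewer than the minimum of 50 used for calls. Of those 29 fragments 19 came from myeloid-like nuclei, and outside the myeloid gate the ratio of this bin was 2.48 (0.816 to 8.29), an interval that included 1.

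**Figure D2:**
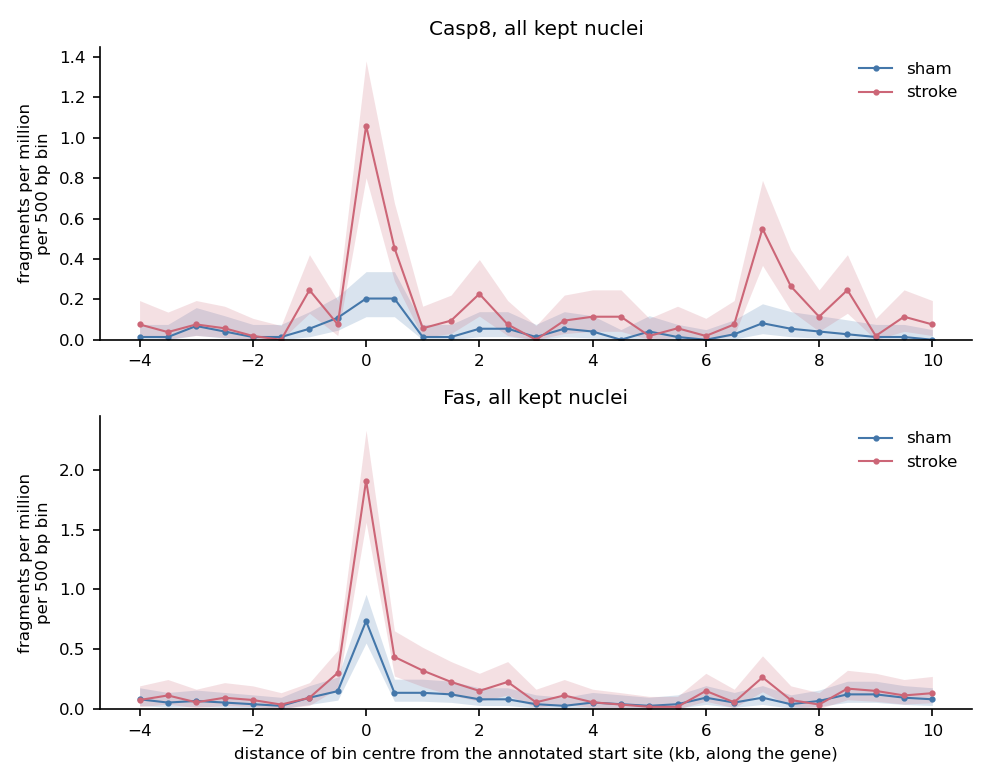
CPM in 500 bp bins from 4 kb upstream to 10 kb downstream of the annotated start sites of Casp8 (top) and Fas (bottom), in all kept nuclei of the sham (blue) and stroke (red) libraries, with shaded 95% counting intervals. Stroke stands above sham in the start bin of each gene, at 1.06 against 0.204 for Casp8 and 1.91 against 0.735 for Fas.

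The 250 bases upstream of these starts are shown because the start bins with the differences above open with them. They are at chr1:58795124-58795373 and chr19:34290416-34290665, plus strand, 5′ to 3′, from the mm10 (GRCm38.p6) genome. Capitals mark matches on either strand to TGANTCA (the core letters bound by AP-1), GGGCGG (SP1) and ACGTG (hypoxia-inducible factor).
Casp8 upstream: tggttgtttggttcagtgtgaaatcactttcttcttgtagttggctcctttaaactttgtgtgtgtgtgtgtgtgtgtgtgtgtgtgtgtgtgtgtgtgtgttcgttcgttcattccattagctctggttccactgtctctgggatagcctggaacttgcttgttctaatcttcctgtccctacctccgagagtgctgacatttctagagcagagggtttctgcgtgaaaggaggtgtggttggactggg
Fas upstream: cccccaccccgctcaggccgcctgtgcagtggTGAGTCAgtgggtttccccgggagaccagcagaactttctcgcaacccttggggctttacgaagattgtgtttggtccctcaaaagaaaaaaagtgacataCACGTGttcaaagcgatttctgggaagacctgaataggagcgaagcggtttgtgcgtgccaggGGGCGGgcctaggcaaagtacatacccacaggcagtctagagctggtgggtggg
The Casp8 stretch held none of the 3 motifs in this window. Fas held 1 AP-1 match and 1 SP1 match, and a stretch that reads ACGTG on both strands, so that its 2 matches to that motif overlap. Among 32851 RefSeq promoters of the same length, 6.75% held TGANTCA, 32.7% GGGCGG and 16.6% ACGTG. RefSeq promoter entries were matched for 26 of the 29 members, all but Gsdmd, Tradd and Pmaip1. A match is a description of letters.

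Myeloid-like nuclei held 136 of the 537 stroke Casp8 fragments and 29 of the 56 in its start bin. They made up 0.352% of kept sham nuclei and 4.89% of kept stroke nuclei, and they had the highest Casp8 level of all classes in both libraries, 28.8 CPM in sham (6 fragments) and 38.9 CPM in stroke. Outside the myeloid gate the Casp8 ratio was 1.53 and its start bin still had 13 sham and 27 stroke fragments, a ratio of 3.09 (1.54 to 6.52). For Fas and Slc7a11 the ratios outside the gate were 1.69 and 1.5. When the stroke classes were weighted by the sham class shares, the log2 ratios of Casp8, Fas and Slc7a11 were 0.55, 0.44 and 0.50, and none of the 29 members was past 1.5-fold. In this weighting all unassigned nuclei counted as a single class, so a shift of cell types among them was not removed.

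The barcodes left out for few fragments in peaks bear on the same 3 genes. In the 162 sham and 3686 stroke called barcodes with at most 20% of fragments in peaks, Casp8 had 14.2 and 18.5 CPM, Fas 12.7 and 16.7 CPM and Slc7a11 212 and 244 CPM, above the kept nuclei of either library. Of the 29 members, 10 in sham and 8 in stroke were higher in these barcodes than in kept nuclei, as were 33.8% and 28.7% of all genes. The start bins went the other way in stroke: Casp8 had 0.367 CPM in the left-out barcodes and 1.06 CPM in kept nuclei, and Fas 0.424 against 1.91 CPM. Among kept nuclei with over 30% of fragments in peaks the ratios were 1.70 for Casp8, 1.67 for Fas and 1.43 for Slc7a11. The part of low-fraction chromatin in the gene-wide ratios was not otherwise tested.

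More nuclei carried a fragment of these genes in the stroke library. At least 1 Casp8 fragment was found in 298 of 6817 sham nuclei (4.37%, 3.90 to 4.88%) and 395 of 5054 stroke nuclei (7.82%, 7.09 to 8.59%). With each nucleus thinned to 3000 fragments, for which 967 sham and 711 stroke nuclei were too shallow, the shares became 1.39% and 2.55%. Fas was found in 4.58% and 7.93% of nuclei before thinning and in 1.45% and 2.81% after it. Both shares thus kept the same order at equal depth.

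Caspase and apoptosome genes differed little in all kept nuclei. Casp9, the initiator caspase of the mitochondrial route, had 40.4 CPM in sham and 37.2 CPM in stroke (ratio 0.922, 0.870 to 0.976). Apaf1, the scaffold of the apoptosome, had 73.5 and 72.1 CPM, with an interval that included 1. Casp6, an executioner caspase, had 6.63 and 7.77 CPM (ratio 1.17, 1.02 to 1.34). None of these 3 came near the threshold.

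In the BCL2 family, the pore-forming Bax had the lower ratio of its pair, with 27.1 CPM in sham and 23.1 CPM in stroke (ratio 0.852, 0.793 to 0.916). Bak1, the other pore-forming member, had 22.5 and 21.6 CPM and an interval that included 1. The protective genes Bcl2 and Bcl2l1 (BCL-XL) had ratios of 1.17 (1.13 to 1.22) and 1.19 (1.14 to 1.23), and Mcl1 had 1.02 (0.949 to 1.10). Of the BH3-only genes, which start mitochondrial apoptosis, Bcl2l11 (BIM) had the highest ratio at 1.27 (1.18 to 1.36), while Bbc3 (PUMA), Bid and Pmaip1 (NOXA) lay between 0.978 and 1.03 with intervals that included 1. The log2 ratios of Bcl2, Bcl2l1 and Bcl2l11 were 0.23, 0.25 and 0.34. With the stroke classes weighted by the sham class shares they were 0.06, 0.05 and 0.07. At the Bcl2l1 start site the log2 ratio was -0.13, close to the median of -0.10 over all start sites, so the excess of fragments lay elsewhere in the gene.

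None of the necroptosis and pyroptosis genes came past the threshold in all kept nuclei. Mlkl, the executioner of necroptosis, had 5.36 CPM in sham and 6.71 CPM in stroke (ratio 1.25, 1.08 to 1.45). Ripk1 had 24.1 and 26.9 CPM (ratio 1.12, 1.04 to 1.20) and its kinase partner Ripk3 had 2.00 and 2.33 CPM. The gasdermin gene Gsdmd had 3.50 and 3.58 CPM. The intervals of Ripk3 and Gsdmd included 1.

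Ferroptosis genes held both the widest gene and the lowest ratio of the list. Slc7a11, the cystine and glutamate exchanger, had 75.4 CPM in sham and 114 CPM in stroke over a window of 553 kb, a ratio of 1.51 (1.46 to 1.57), at chr3:49892526-50443614 on the minus strand. Per kb of window this was 0.136 and 0.206 CPM, and within 1 kb of its start the gene had 1.72 and 3.07 CPM. Tfrc, the transferrin receptor that brings iron into the cell, was lowest, with 27.6 CPM in sham and 22.1 CPM in stroke (ratio 0.800, 0.744 to 0.861). Acsl4, which supplies the lipids that are peroxidised, had a ratio of 1.13 (1.05 to 1.21), and Gpx4 had 0.896 (0.847 to 0.948). Ferroptosis genes thus did not move one way.

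The remaining regulators were nearly level. Trp53, the p53 gene, had 43.7 and 40.6 CPM in sham and stroke (ratio 0.931, 0.881 to 0.984), and Parp1, the DNA break sensor whose overactivation can kill cells, had 44.7 and 40.8 CPM (ratio 0.914, 0.866 to 0.966). Aifm1, the mitochondrial factor that carries out PARP1-dependent death, had 15 and 15.8 CPM. Cdkn1a, the p53 target that encodes p21, had 33.6 and 32.7 CPM over the gene but 0.967 and 1.69 CPM within 1 kb of its annotated start, a log2 ratio of 0.80 (0.34 to 1.27). Its window and its start therefore differed, as the plot of both measures by gene shows.

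Compared per kb of window, the members spanned a wide range of accessibility. In sham nuclei the levels were highest for Bax and Gpx4 (3.77 CPM per kb each), Mcl1 (3.60) and Trp53 (3.23), all short genes. They were lowest for Casp8 (0.0994), Slc7a11 (0.136) and Fas (0.139). The 3 members past the threshold were thus the 3 with the least accessibility per kb in sham.

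In astrocyte-like nuclei, 3 of the 24 members with at least 50 fragments were higher in stroke: Fas, Cdkn1a and Bbc3. This was 12.5% of the 24, against 7.57% of all 15184 genes tested, and no member was lower, against 5.87% of all genes. Casp6, Casp8, Pmaip1, Ripk3 and Gsdmd had too few fragments to compare. The median log2 ratio of the 24 was 0.06, and that of all genes -0.07.

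Fas had the largest astrocyte difference, with 9.48 CPM in sham (30 fragments) and 25.7 CPM in stroke (133 fragments), a ratio of 2.71 (1.81 to 4.18). It was found in 6.82% of sham and 17.2% of stroke astrocyte-like nuclei, and in 2.98% and 7.05% at 3000 fragments per nucleus. Its start bin held 3.16 and 9.66 CPM, a ratio of 3.06 (1.53 to 6.76), where all start sites of the class had a median log2 ratio of -0.21, and it opens with the Fas sequence printed above. Within 1 kb of their annotated starts, Bbc3 had 4 sham and 13 stroke fragments and Cdkn1a 0 and 5, too few to compare. For Bbc3 the nearest RefSeq start lies 1190 bp from the annotated one, outside this window. Outside the astrocyte gate the Fas start bin had 0.626 and 1.07 CPM, a ratio of 1.71 (1.12 to 2.62).

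Cdkn1a had 20.8 CPM in sham and 36.3 CPM in stroke astrocyte-like nuclei, a ratio of 1.74 (1.31 to 2.34), and Bbc3, a direct p53 target, had 16.7 and 27.8 CPM, a ratio of 1.66 (1.21 to 2.32). The library intervals did not overlap for either gene. Bbc3 fell short of the threshold among all called barcodes (log2 ratio 0.48) and with the class gated from odd markers (0.52). In Cdkn1a the difference was seen in an intronic bin 4.5 kb into the gene, with 11.1 CPM in sham and 17.2 CPM in stroke (ratio 1.56, 1.04 to 2.37). Trp53 itself had a log2 ratio of -0.14 in the same nuclei.

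On the lower side, Casp9 and Gpx4 came close to the threshold in astrocyte-like nuclei. Casp9 had 69.5 CPM in sham and 46.6 CPM in stroke (ratio 0.670, 0.556 to 0.808), and its window overlaps Cela2a and Ctrc. Gpx4 had 79.6 and 54.5 CPM (ratio 0.685, 0.576 to 0.815), with the sharpest contrast in a bin 6.5 kb into the annotated gene, at an internal start site, with 46.1 and 24.0 CPM (ratio 0.520, 0.406 to 0.665). Both intervals lay below 1.

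Slc7a11 was level over the whole gene in astrocyte-like nuclei, with 173 CPM in sham and 167 CPM in stroke, yet single intronic elements differed in opposite directions. A bin 21.5 kb into the gene had 46.1 CPM in sham (146 fragments) and 17.6 CPM in stroke (91 fragments), a ratio of 0.381 (0.290 to 0.499). The next bin, at 22.0 kb, had 23.4 and 5.41 CPM, a ratio of 0.231 (0.144 to 0.362). Outside the astrocyte gate the first of these bins had 0.583 and 0.567 CPM, so it was open mainly in astrocyte-like nuclei and lower there in stroke, in a class where 22.1% of the bins of all genes were at least 1.5-fold lower. A bin 46.5 kb into the gene had 0 of 3165959 sham and 25 of 5175296 stroke fragments, that is 4.83 CPM in stroke. Against a floor of 3 fragments in the sham nuclei of the class (0.948 CPM) this is at least 5.10-fold higher, and the exact interval of the ratio starts at 3.85. Outside the astrocyte gate this bin had 0.669 and 1.28 CPM. In excitatory neuron-like nuclei it had 0.270 CPM in sham and 3.15 CPM in stroke (ratio 11.7, 2.49 to 109). These rest on 2 and 10 fragments, also under that minimum. In interneuron-like nuclei it had 0.560 and 1.17 CPM, with an interval that included 1.

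Bcl2l1 had more intronic accessibility in the stroke astrocyte-like nuclei while its main open sites were level. The bin 25.5 kb into the gene held 0 sham and 28 stroke fragments, 5.41 CPM, which is at least 5.71-fold higher against the same floor, with an exact interval from 4.34 upward. The bin at 11.5 kb had 3.16 CPM in sham and 8.70 CPM in stroke (ratio 2.75, 1.37 to 6.13), and that at 21.5 kb held 0 and 16 fragments, at least 3.26-fold higher with an exact interval from 2.36 upward. Beside them, the bin 0.5 kb from the start had 30 and 27.2 CPM, and one 46 kb into the gene had 25.6 and 29.6 CPM. In stroke the 25.5 kb element was also seen in the other non-neuronal classes, with 6.57 CPM in myeloid-like, 5.63 CPM in oligodendrocyte-like, 5.15 CPM in vascular-like and 4.15 CPM in OPC-like nuclei (23, 7, 5 and 4 fragments). In sham these classes held 0, 1, 1 and 2 fragments, and none of them differed between the libraries beyond counting error. Excitatory neuron-like, interneuron-like and spiny projection neuron-like nuclei had 3, 2 and 4 fragments in sham and 1 each in stroke. Outside the astrocyte gate the bin had a ratio of 3.29 (2.04 to 5.45).

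**Figure D3:**
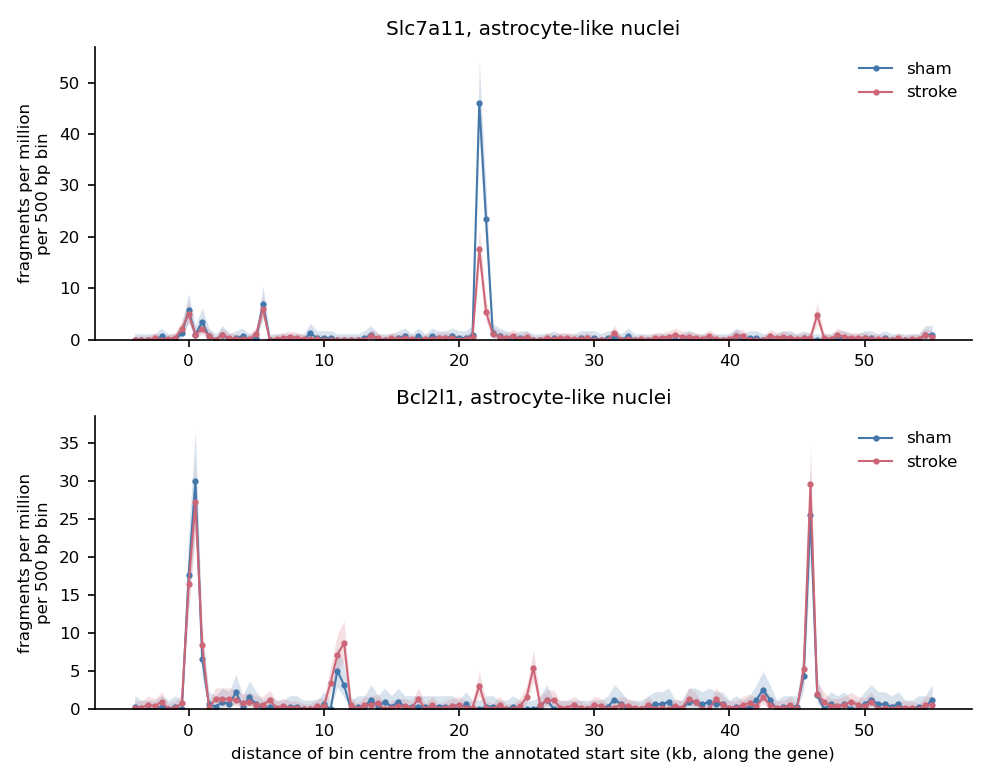
CPM in 500 bp bins along Slc7a11 (top) and Bcl2l1 (bottom) in astrocyte-like nuclei of the sham (blue) and stroke (red) libraries, from 4 kb upstream of the start to 55 kb into the gene, with shaded 95% counting intervals. The Slc7a11 peak 21.5 kb into the gene is 46.1 in sham and 17.6 in stroke. The Bcl2l1 peak at 25.5 kb is 5.41 in stroke, from 28 fragments, with no sham fragment.

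The 300 bases around the densest point of 3 of these elements are shown because they carry the astrocyte differences: the Slc7a11 element lower in stroke (chr3:50422000-50422299), the Slc7a11 element with no sham fragment in this class (chr3:50396815-50397114) and the Bcl2l1 element at 25.5 kb (chr2:152805926-152806225). They are given 5′ to 3′ on the minus strand, the strand of both genes, from mm10, and all lie in introns. Capitals mark the same 3 motifs on either strand.
Slc7a11 21.5 kb element: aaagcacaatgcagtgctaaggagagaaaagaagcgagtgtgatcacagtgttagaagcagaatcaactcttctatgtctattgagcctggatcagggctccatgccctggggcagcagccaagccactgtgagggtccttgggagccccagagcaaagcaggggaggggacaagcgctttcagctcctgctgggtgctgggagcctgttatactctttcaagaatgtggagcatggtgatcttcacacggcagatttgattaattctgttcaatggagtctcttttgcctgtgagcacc
Slc7a11 46.5 kb element: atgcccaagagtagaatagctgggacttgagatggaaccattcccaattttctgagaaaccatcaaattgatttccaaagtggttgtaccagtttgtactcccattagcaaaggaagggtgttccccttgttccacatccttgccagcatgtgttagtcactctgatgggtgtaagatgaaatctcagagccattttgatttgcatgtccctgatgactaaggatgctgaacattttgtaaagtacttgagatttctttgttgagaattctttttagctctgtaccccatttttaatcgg
Bcl2l1 25.5 kb element: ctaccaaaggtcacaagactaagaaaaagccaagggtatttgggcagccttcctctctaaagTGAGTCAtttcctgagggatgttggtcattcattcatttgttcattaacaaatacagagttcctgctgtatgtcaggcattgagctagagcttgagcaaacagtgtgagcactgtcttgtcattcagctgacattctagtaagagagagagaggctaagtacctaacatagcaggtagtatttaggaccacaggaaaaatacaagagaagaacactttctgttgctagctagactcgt
The Bcl2l1 element held 1 AP-1 match (TGAGTCA), and the Slc7a11 elements held none of the 3 motifs in these windows. Of the middle 300 bases of all 2922 bins of the 29 genes, 8.69% held TGANTCA, 4.04% GGGCGG and 12.1% ACGTG. The Slc7a11 element at 46.5 kb is 85% soft-masked repeat, where fragments can be placed less surely, and the other Slc7a11 element is 13.3% repeat.

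The astrocyte-like nuclei of the libraries differed in quality and purity as well. Their median share of fragments in peaks was 55.8% in sham and 50.2% in stroke, and their medians were 6232 and 8036 fragments. The 14 astrocyte markers summed to 2040 CPM in sham and 1802 CPM in stroke, with none at 0. Several lists of other cell types summed to more in stroke with intervals apart: the 23 vascular markers went from 479 to 531 CPM, the 11 spiny projection neuron markers from 439 to 495 CPM, the 9 interneuron markers from 307 to 347 CPM and the 6 T and NK cell markers from 62.5 to 80.4 CPM. The 7 monocyte and macrophage markers had 41.7 and 54.1 CPM, the 20 myeloid markers 436 and 465 CPM (1683 and 1653 CPM in myeloid-like nuclei), the 16 oligodendrocyte markers 248 and 266 CPM and the 9 granulocyte markers 28.1 and 30.3 CPM. The 9 OPC markers had 528 and 487 CPM and the 11 excitatory neuron markers 292 and 260 CPM. Of all these markers only S100a9, a granulocyte marker, was at 0, in sham. The part of these shifts in the astrocyte results was not tested.

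**Figure D4:**
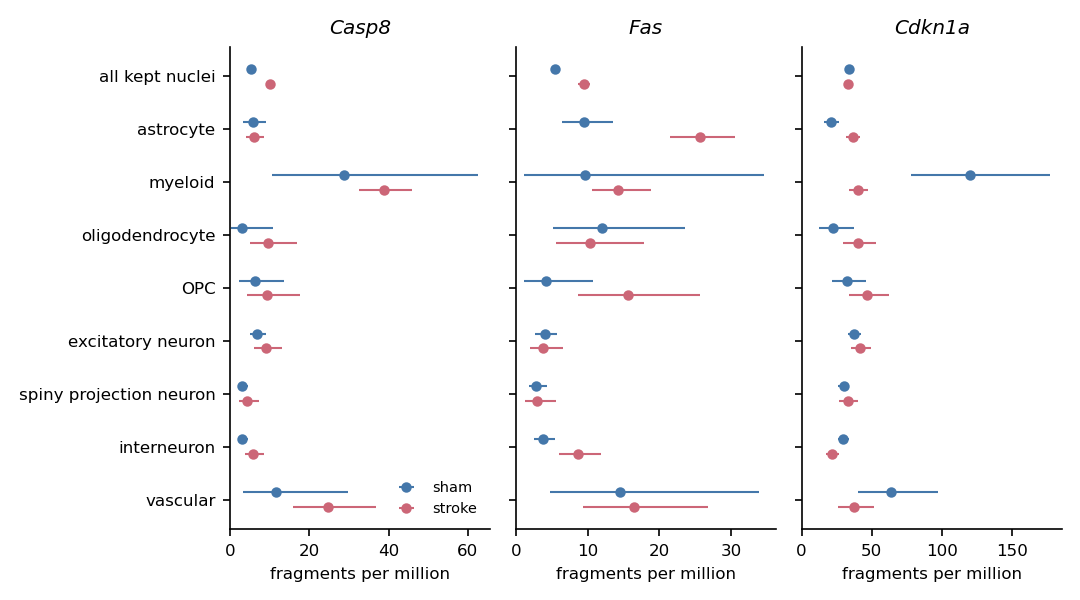
CPM over Casp8, Fas and Cdkn1a in all kept nuclei and in each class, for the sham (blue) and stroke (red) libraries, with 95% counting intervals. Fas in astrocyte-like nuclei stands at 9.48 in sham and 25.7 in stroke, and Cdkn1a in the 24 sham myeloid-like nuclei at 120 with a wide interval.

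Members ordered differently across the classes. Casp8 was highest in myeloid-like and second in vascular-like nuclei in both libraries, with 11.6 CPM in sham and 24.7 CPM in stroke in the latter, although in sham these rested on 6 and 4 fragments and did not differ beyond counting error, while in stroke their ratio was 1.57 (1.01 to 2.54). Fas was highest in vascular-like nuclei in sham, at 14.5 CPM from 5 fragments, and in astrocyte-like nuclei in stroke, without differing beyond counting error from the next class in either library, and lowest in spiny projection neuron-like nuclei in both, at 2.86 and 2.95 CPM. Bcl2 was highest in astrocyte-like nuclei, at 185 CPM in sham and 187 CPM in stroke, and Cflar in myeloid-like nuclei, at 86.3 and 96.6 CPM. Both led the vascular-like nuclei beyond counting error in stroke, by 1.47 (1.22 to 1.78) and 1.42 (1.09 to 1.88), but not in sham, where the ratios were 1.10 (0.838 to 1.47) and 1.49 (0.741 to 2.96). Slc7a11 had 173 CPM in sham astrocyte-like and 61.6 CPM in sham excitatory neuron-like nuclei, its highest and lowest classes, although the vascular-like nuclei at 139 CPM did not differ from the former beyond counting error. In stroke the vascular-like nuclei were highest for Slc7a11, at 182 CPM against 167 CPM in astrocyte-like nuclei (ratio 1.09, 0.922 to 1.28).

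Excitatory neuron-like nuclei showed 1 member past the threshold. Slc7a11 had 61.6 CPM in sham (457 fragments) and 98.8 CPM in stroke (314 fragments), a ratio of 1.6 (1.38 to 1.85). It was 1 of 24 members compared, or 4.17%, against 4.26% of all genes, and no member was lower, against 5.45% of all genes. Among nuclei with over 30% of fragments in peaks the Slc7a11 ratio was 1.68 (1.45 to 1.95), while within 1 kb of the start the log2 ratio was 0.37, short of the threshold, from 9 and 5 fragments. Beside it, the 14 astrocyte markers summed to 480 CPM (464 to 496) in sham and 533 CPM (508 to 559) in stroke, the 9 interneuron markers to 222 and 252 CPM and the 8 microglia markers to 228 and 265 CPM, each with intervals apart, while the 11 markers of the class had 1156 and 1164 CPM. None of these markers was at 0, and their part in the Slc7a11 difference was not tested. Apaf1 had a ratio of 1.31 (1.13 to 1.51), and Casp9 had 0.712 (0.552 to 0.909). The gate was loose here, since 418 of 600 sham and 204 of 254 stroke nuclei lay near its limit.

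Spiny projection neuron-like nuclei of the striatum, a region in the territory of the occluded artery, had 6 members past the threshold. Cflar, Fadd and Mlkl were higher in stroke, 3 of 24 or 12.5% against 4.64% of all genes, and Bak1, Bid and Casp6 were lower, 12.5% against 5.35%. Mlkl had 4.48 CPM in sham and 10.8 CPM in stroke from 36 and 33 fragments, a ratio of 2.42 (1.46 to 3.99). Cflar had 10.5 and 21 CPM, a ratio of 2.01 (1.43 to 2.81), and Fadd had 10.7 and 17.1 CPM, a ratio of 1.59 (1.11 to 2.27). These 3 intervals lay above 1.

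In the other direction, Bak1 had 25 CPM in sham and 13.1 CPM in stroke spiny projection neuron-like nuclei, a ratio of 0.524 (0.364 to 0.739), in a window that overlaps Ggnbp1. Bid, the BH3-only protein that caspase-8 cleaves, had 24.5 and 13.8 CPM, a ratio of 0.562 (0.393 to 0.787), in a window that overlaps Bcl2l13. Casp6 had 6.6 and 3.94 CPM, with an interval (0.290 to 1.13) that included 1. Beside these values, the 11 markers of the class summed to 2319 CPM in sham and 1694 CPM in stroke, and the 20 myeloid markers to 439 and 496 CPM, with none at 0. The median share of fragments in peaks was 37.9% and 31.8%, and among nuclei over 30% the ratios were 3.02 for Mlkl, 2.04 for Cflar, 0.527 for Bak1 and 0.498 for Bid, while Fadd at 1.28 (0.771 to 2.07) and Casp6 at 0.679 (0.256 to 1.54) were no longer past the threshold. The part of the marker shift was not tested.

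Interneuron-like nuclei had Fas as the one member past the threshold, 1 of 25 (4.00%) against 2.74% of all genes, and no lower member, against 3.54%. Fas had 3.78 CPM in sham and 8.64 CPM in stroke from 27 and 37 fragments, a ratio of 2.29 (1.35 to 3.90). Its start bin held 4 and 1 fragments, so the excess did not lie there. Beside this, the 7 monocyte and macrophage markers summed to 53 CPM in sham and 78.9 CPM in stroke, with Ly6c2 at 0 in stroke, the 20 myeloid markers to 478 CPM in both, the 14 astrocyte markers to 343 CPM (329 to 357) and 382 CPM (364 to 401), and the 9 markers of the class to 966 and 883 CPM, with none at 0 in these last 3 lists. Astrocyte-like nuclei had 25.7 CPM of Fas and 167 CPM of Slc7a11 in stroke. The part of these shifts in the Fas and Slc7a11 differences was not tested. With the class gated from even markers the Fas log2 ratio was 0.44, no longer past the threshold. Below the threshold, Slc7a11 had 78.1 and 105 CPM (ratio 1.35, 1.19 to 1.53) and Trp53 had 39.3 and 26.8 CPM (ratio 0.683, 0.545 to 0.851). Slc7a11 was thus above 1 by more than counting error in all 3 neuron-like classes, with a ratio of 1.24 (1.07 to 1.45) in spiny projection neuron-like nuclei.

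**Figure D5:**
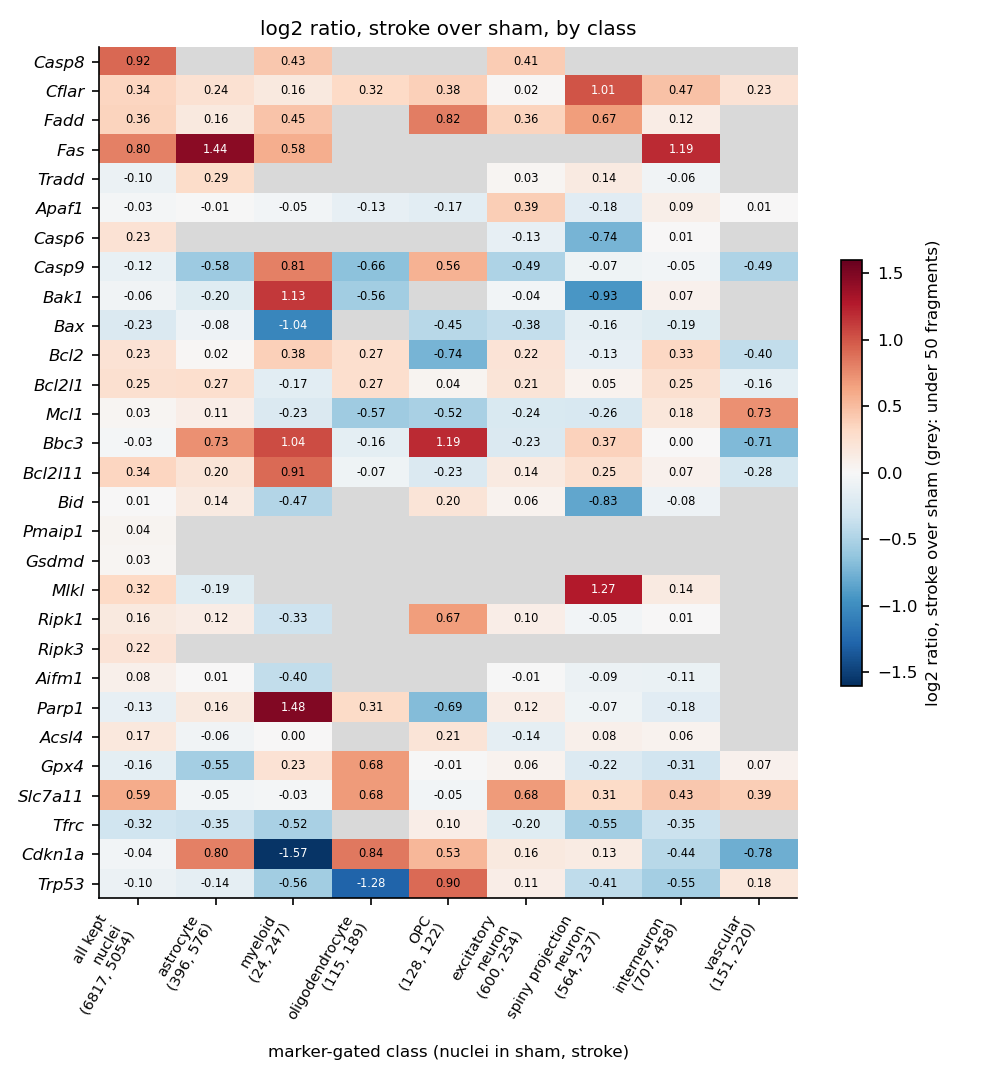
Log2 ratio of stroke over sham for each of the 29 regulators in all kept nuclei and in 8 classes, red where higher and blue where lower in stroke and grey where both libraries together had under 50 fragments. The nuclei of sham and stroke stand under each class. Fas is red in astrocyte-like (1.44) and interneuron-like nuclei (1.19), and Slc7a11 is near 0 in astrocyte-like nuclei (-0.05) and 0.68 in excitatory neuron-like nuclei.

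OPC-like nuclei had 4 of 19 members higher (21.1%, against 6.48% of all genes) and 2 lower (10.5%, against 11.6%). Bbc3 had 25 CPM in sham and 57.1 CPM in stroke (ratio 2.28, 1.39 to 3.85), and Trp53 had 32.3 and 60.2 CPM (ratio 1.86, 1.18 to 2.98), in a window shared with Wrap53. Fadd and Ripk1 had ratios of 1.77 and 1.59 with intervals that included 1. Bcl2 had 113 and 67.5 CPM (ratio 0.599, 0.433 to 0.822), and Parp1 had 55.3 and 34.3 CPM (ratio 0.620, 0.389 to 0.975). Among nuclei with over 30% of fragments in peaks the Parp1 ratio was 0.797 (0.464 to 1.34) and no longer past the threshold. With the class gated from even markers none of these 6 members was past it, with log2 ratios of 0.56 for Bbc3, 0.27 for Trp53, 0.44 for Fadd, 0.57 for Ripk1, -0.33 for Bcl2 and -0.29 for Parp1.

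Oligodendrocyte-like nuclei had 3 of 14 members higher (21.4%, against 7.23% of all genes) and 2 lower (14.3%, against 13.8%). Trp53 had 82.2 CPM in sham and 33.8 CPM in stroke (ratio 0.410, 0.268 to 0.625), and Casp9 had 67.3 and 42.6 CPM (ratio 0.633, 0.417 to 0.964). Gpx4 had 52.3 and 83.6 CPM (ratio 1.6, 1.08 to 2.41), and Slc7a11 had 74.8 and 120 CPM (ratio 1.6, 1.16 to 2.25). Among nuclei with over 30% of fragments in peaks, Slc7a11 had 75.9 and 77.9 CPM (ratio 1.03, 0.665 to 1.59) and Casp9 a ratio of 0.829 (0.517 to 1.33), both no longer past the threshold, while Trp53 had 0.551 (0.338 to 0.884) and Gpx4 1.99 (1.27 to 3.18). Among all called barcodes the Gpx4 log2 ratio was 0.02. Beside these values, the 14 astrocyte markers summed to 422 CPM (374 to 474) in sham and 519 CPM (480 to 561) in stroke, and the 16 markers of the class to 1549 and 1431 CPM, with none at 0 in either list. Astrocyte-like nuclei had 173 CPM of Slc7a11 in sham and 167 CPM in stroke, and 79.6 and 54.5 CPM of Gpx4, the latter below the 83.6 CPM of the stroke oligodendrocyte-like nuclei, and the part of the marker shift was not tested. Cdkn1a had a ratio of 1.79 with an interval (0.990 to 3.44) that included 1. The sham nuclei of this class were shallow, with a median of 2972 fragments.

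Vascular-like nuclei had 1 of 12 members higher (8.33%, against 12.6% of all genes) and 2 lower (16.7%, against 14.4%). Mcl1 had 26.1 CPM in sham and 43.3 CPM in stroke, and Bbc3 and Cdkn1a each had 63.9 CPM in sham, with 39.2 and 37.1 CPM in stroke. All 3 intervals included 1, and the sham nuclei had a median of 1364 fragments. For none of the 12 members compared did the difference exceed counting error in this class at this depth. The 23 markers of the class summed to 1594 CPM in sham and 1269 CPM in stroke, and their part was not tested.

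Myeloid-like nuclei had 5 of 23 members higher (21.7%, against 24.1% of all genes) and 2 lower (8.70%, against 19.8%), but sham held 24 such nuclei with 208550 fragments. Parp1 had 19.2 CPM in sham from 4 fragments and 53.4 CPM in stroke (ratio 2.79, 1.07 to 10.3). Cdkn1a had 120 CPM from 25 fragments and 40.3 CPM (ratio 0.336, 0.219 to 0.537), and Bax had 57.5 and 28.0 CPM (ratio 0.487, 0.266 to 0.974), in a window that overlaps Gm45808. Casp9, Bak1, Bcl2l11 and Bbc3 had ratios between 1.75 and 2.18 with intervals that included 1. The populations behind the label were not alike either: the 7 monocyte and macrophage markers summed to 52.7 CPM in sham, with Ly6c2, Ms4a7 and Lyz2 at 0, and to 128 CPM in stroke, with Ly6c2 at 0, while the 8 microglia markers summed to 681 and 638 CPM.

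Looking across all bins, 412 of the 2922 bins of the 29 genes held at least 50 fragments in all kept nuclei, and 63 of these were higher (15.3%) and 25 lower (6.07%) in stroke. Of the 386951 such bins in the windows of all genes, 6.68% were higher and 13.7% lower. Per fragment in peaks, 112 of the 412 were higher and 7 lower, against 14.5% and 5.68% of all bins. These bin counts were not split by gene, and the windows differ in width, up to 553 kb for Slc7a11. A few loci may therefore weigh heavily in them. After the Casp8 start, the highest ratios were those of the Bcl2l1 bins at 25.5 kb (0.354 CPM in sham, 1.63 CPM in stroke, ratio 4.60) and 21.5 kb (ratio 3.62). Cflar had 2 intronic bins among the 10 largest differences, at 8.50 kb (ratio 2.78, 1.54 to 5.21) and 32.0 kb (ratio 2.62, 1.6 to 4.40). Myeloid-like nuclei held 14 of the 36 and 21 of the 49 stroke fragments of these Cflar bins, and outside the myeloid gate the ratios were 1.82 (0.930 to 3.59) and 1.73 (0.969 to 3.13), both with intervals that included 1. In astrocyte-like nuclei 38 bins could be compared, of which 3 were higher (7.89%) and 6 lower (15.8%), against 6.23% and 22.1% of 18693 bins of all genes. Per fragment in peaks these were 5 higher and 3 lower, against 9.02% and 11.9%. Fewer bins reached 50 fragments in the other classes, between 1 in OPC-like and 28 in excitatory neuron-like nuclei.

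The pathway genes around the members gave a background of the same kind. Of 90 further genes of these pathways, 10 were at least 1.5-fold higher in stroke in all kept nuclei and 0 lower, with a median log2 ratio of -0.02, where 8.98% of all genes were higher and 0.300% lower. The highest were Eda2r, a p53-induced receptor of the TNF receptor family, with 1.48 CPM in sham and 4.30 CPM in stroke (ratio 2.90, 2.30 to 3.68), and Bcl2a1b, a protective BCL2 family gene with near-identical copies that make its counts uncertain (ratio 2.56, 1.54 to 4.35). The lowest were Fasl, the ligand of Fas, with 2.48 and 1.86 CPM, and Diablo, an antagonist of inhibitors of apoptosis, with 35.3 and 26.9 CPM. By list, 3 of 13 caspase and inhibitor genes, 3 of 12 BCL2 family genes, 2 of 14 death receptor and necroptosis genes, 1 of 18 ferroptosis genes, 1 of 19 p53 response genes, 0 of 8 pyroptosis genes and 0 of 6 DNA break genes were higher.

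In astrocyte-like nuclei 8 of the 75 pathway genes with enough fragments were higher and 1 lower, against 7.57% and 5.87% of all genes. Eda2r again led, with 0.948 CPM in sham from 3 fragments and 9.66 CPM in stroke from 50 (ratio 10.2, 3.29 to 51.1), followed by the BH3-only gene Bik with 4.42 and 9.85 CPM (ratio 2.23, 1.21 to 4.36). The p53 list was not higher as a whole, with 1 of 18 compared genes past the threshold and a median log2 ratio of -0.10. The death receptor Tnfrsf10b was lowest, with 9.48 and 5.41 CPM (ratio 0.571, 0.329 to 0.989), followed by the inflammasome cytokine Il18 (ratio 0.678, 0.550 to 0.837).

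In excitatory neuron-like nuclei 6 of 79 pathway genes were higher and 2 lower, against 4.26% and 5.45% of all genes, led by the stress gene Gadd45a (8.49 CPM in sham, 15.7 CPM in stroke, ratio 1.85) and the heme oxygenase gene Hmox1 (ratio 1.75), with Bik (ratio 0.431) and the caspase inhibitor Xiap (ratio 0.648) lowest. Spiny projection neuron-like nuclei had 5 of 76 higher and 3 lower, against 4.64% and 5.35%, led by Gch1, whose product makes the antioxidant tetrahydrobiopterin (3.74 and 8.21 CPM, ratio 2.20), and Parg, which degrades poly(ADP-ribose) (ratio 1.57, 1.30 to 1.90). Traf1 and Tnfrsf1b were lowest there, with ratios of 0.620 and 0.629 whose intervals included 1. Interneuron-like nuclei had 2 of 80 higher and 2 lower, against 2.74% and 3.54%, with the p53 target Perp highest (3.36 and 7.94 CPM, ratio 2.36) before Tnfrsf10b (ratio 1.58), and the inflammasome gene Nlrp3 (ratio 0.547) and the apoptotic nuclease gene Dffb (ratio 0.647) lowest. The classes thus led with different pathway genes, each by its own counts.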

How the data were processed

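The deposited files held, for each library, the fragments of every barcode with their read counts and a per-barcode summary table, made by the authors with Cell Ranger ATAC 2.1.0 on mm10, as the submitters' processing notes name them (Cell Ranger ARC is also named, with no version). The counts used here are counts of unique fragments computed from these deposited fragment files, and the counts of fragments in peaks per barcode came from the authors' summary. A fragment was counted once for each gene whose body or 2 kb upstream it overlapped (GENCODE M21), scaled to 1000000 fragments of the same nuclei (CPM). Barcodes called as cells with over 20% of fragments in peaks were kept. The study's methods also require between 1000 and 100000 fragments in peaks, which left 5948 sham and 4379 stroke nuclei and was tried as an alternative. Their further limits on blacklisted fragments, nucleosome signal and start-site enrichment were not applied here. No doublets were removed, and 42 kept barcodes occurred in both libraries, against 75.9 expected if they were independent. The cell numbers stated by the study match neither the called nor the kept barcodes.

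Classes came from marker genes, in nuclei smoothed over 20 neighbours in a space of 30 latent semantic components. A nucleus was assigned where the summed markers of a class were at least 1.5-fold over the nuclei outside it and led the next class by 0.5 on the log2 scale. This rule replaced a gate on single nuclei and other settings after their results were seen. Gates from alternate markers of each list gave the same class in 83.9% of the 3251 nuclei that both named. Odd markers alone named 5564 nuclei and even markers 5217. Both gave the class of the full lists in 111 of 600 sham and 39 of 254 stroke excitatory neuron-like nuclei. For interneuron-like nuclei this held in 201 of 707 and 114 of 458, so these 2 classes were the less certain. Ratios carry exact conditional binomial intervals, levels exact Poisson intervals and shares Clopper-Pearson intervals, which cover counting error only. With 1 library per condition no test across replicates was made. The gate and the ratios were tested on simulated data. The simulated counts varied by counting error only, and the simulated nuclei were not smoothed over neighbours. These runs therefore cannot speak to the spread between libraries or to nuclei near the limit of a gate. The members, marker and pathway lists were chosen with earlier results of these data known. Members given in full were those past 1.5-fold with at least 50 fragments, and pathway genes were named from the 2 largest in each direction per class. Bins were named from the 10 largest log2 ratios in all kept nuclei and in each class. The Slc7a11 bin at 46.5 kb and the Bcl2l1 bins at 21.5 and 25.5 kb came from the list of all kept nuclei. The Casp8 bin at 7 kb and the Bcl2l1 bin at 46 kb were added apart from these lists. Python 3.11.15 with numpy 2.4.6, scipy 1.17.1, pandas 2.3.3 and scikit-learn 1.9.0 was used.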

Additional observations from a re-analysis of the deposited data

Results flagged for a closer look

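Some members went in opposite directions in different classes, with intervals that left out 1, and these differences between classes were not tested. The stroke over sham ratio of Parp1 was 2.79 in myeloid-like nuclei, from 4 sham fragments, and 0.620 in OPC-like nuclei, where nuclei with over 30% of fragments in peaks gave 0.797 (0.464 to 1.34). Trp53 had a ratio of 1.86 in OPC-like nuclei, where even markers gave a log2 ratio of 0.27 that was no longer past the threshold, and 0.410 in oligodendrocyte-like nuclei, and its window is shared with Wrap53. Cdkn1a had a ratio of 1.74 in astrocyte-like and 0.336 in myeloid-like nuclei, the latter from 24 sham nuclei. In called barcodes with at most 20% of fragments in peaks, which were not among the kept nuclei, Slc7a11 had 212 CPM in sham and 244 CPM in stroke, a ratio of 1.15.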

How the results depend on the processing

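No paired analysis was possible because a single library stood for each condition. Of 145 recomputed counts of members or bins past the threshold, 94 stayed within 1.5 times and 51 did not. In all kept nuclei, 3 members were higher and 0 lower. This became 5 higher within 1 kb of the start, 0 at 2-fold and 0 with stroke classes at sham class shares, and 4 were lower among all called barcodes. For the counts of members in this section the share of all genes was not recomputed under the changed settings. They show how the calls move and cannot be read as a result about the members. Numbers of members past the threshold in either direction moved as follows. Within 1 kb of the start they were 4 in myeloid-like, 2 in excitatory neuron-like and 1 each in oligodendrocyte-like, OPC-like and vascular-like nuclei. Per fragment in peaks they were 11 in myeloid-like and 2 in interneuron-like nuclei. Among all called barcodes they were 20 in interneuron-like, 3 in OPC-like, 3 in excitatory neuron-like and 1 in vascular-like nuclei. Counting cut sites gave 5 in astrocyte-like, 8 in oligodendrocyte-like, 5 in excitatory neuron-like, 3 in interneuron-like and 7 in vascular-like nuclei, and fragments shorter than a nucleosome's DNA gave 0 in interneuron-like nuclei. At 2-fold there were 1 each in astrocyte-like, oligodendrocyte-like and OPC-like, 2 in spiny projection neuron-like and 0 in excitatory neuron-like and vascular-like nuclei. A minimum of 20 fragments gave 11 in myeloid-like, 5 in excitatory neuron-like, 3 in interneuron-like and 10 in vascular-like nuclei, and the limits of the methods on fragments in peaks gave 0 in vascular-like nuclei. With a wider gate margin, which left no excitatory neuron-like nuclei in 1 library and so no value, there were 12 in myeloid-like, 3 in oligodendrocyte-like, 2 in OPC-like and 0 in vascular-like nuclei. Odd markers gave 3 in excitatory neuron-like and 1 in vascular-like nuclei, and even markers 12 in myeloid-like, 0 in OPC-like and 3 in excitatory neuron-like nuclei.

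Nuclei over 30% in peaks, a setting chosen after seeing the data, gave 2 in oligodendrocyte-like, 3 in interneuron-like and 0 in vascular-like nuclei, and 12 lower bins in all kept and 3 in astrocyte-like nuclei. Bins per fragment in peaks, also added later, gave 112 higher and 7 lower in all kept and 5 higher and 3 lower in astrocyte-like nuclei, and even markers gave 1 higher in astrocyte-like nuclei. The cause of these shifts was not tested. Of 378 recomputed values of single members or bins, 346 stayed alike, 28 moved and 4 reversed on the log2 scale: Bax in myeloid-like nuclei with odd markers (0.02), and within 1 kb of the annotated start Bbc3 in myeloid-like (-0.16), Cdkn1a in oligodendrocyte-like (-1.90, from 3 fragments) and Fadd in spiny projection neuron-like nuclei (-0.16). The nearest RefSeq start of Bbc3 lies outside that window. The members past the threshold were followed by their ratio alone, against 1.5-fold, without the minimum of 50 fragments and without the 2-fold setting. Fas and Cdkn1a in astrocyte-like, Parp1 and Cdkn1a in myeloid-like and Trp53 in oligodendrocyte-like nuclei stayed past 1.5-fold under every such setting with a value. So did Bak1 and Mlkl in spiny projection neuron-like nuclei. Fas in astrocyte-like nuclei lay between 1.16 and 1.84 (log2). Every other called member fell short of 1.5-fold under at least 1 setting. Some of these values rest on few fragments. Among the lost calls, log2 values within 1 kb of the start included 0.02 for Cflar in spiny projection neuron-like and 0.15 for Fas in interneuron-like nuclei, among all called barcodes 0.02 for Gpx4 in oligodendrocyte-like and 0.17 for Mcl1 in vascular-like nuclei, over 30% in peaks 0.04 for Slc7a11 in oligodendrocyte-like nuclei, and with even markers 0.27 for Trp53 in OPC-like nuclei. The myeloid-like, vascular-like and oligodendrocyte-like results are limited by few sham fragments, beside the other limits given for these classes. With 1 library per condition the spread between animals is unknown.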

Other observations

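Pathway genes beside the members also differed in the glial, vascular and myeloid classes. In OPC-like nuclei 5 of 43 pathway genes were higher and 5 lower in stroke, against 6.48% and 11.6% of all genes. Tnfrsf1a, the main receptor for TNF, had 17.7 CPM in sham and 42.6 CPM in stroke (ratio 2.40, 1.33 to 4.51), and Zmat3, a p53 target, had 28.2 and 54.0 CPM (ratio 1.92, 1.18 to 3.17). Gsdme, a gasdermin, and Mdm4, an inhibitor of p53, were lowest, with ratios of 0.485 (0.318 to 0.727) and 0.498 (0.347 to 0.706). In oligodendrocyte-like nuclei 3 of 42 were higher and 3 lower, against 7.23% and 13.8%, among them Lig3, a DNA ligase, at 1.66 (1.01 to 2.82) and Nfe2l2, the NRF2 gene of the antioxidant response, at 1.64 (0.95 to 2.97). The lowest there were Keap1, which holds NRF2 in check, at 0.538 (0.329 to 0.878), and the death receptor Tnfrsf21 at 0.578 (0.367 to 0.912).

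In vascular-like nuclei 3 of 31 pathway genes were higher and 8 lower, against 12.6% and 14.4% of all genes. Lpcat3, which builds polyunsaturated fatty acids into membrane lipids, had 43.6 CPM in sham and 113 CPM in stroke (ratio 2.6, 1.51 to 4.81), and Tnfrsf1a had a ratio of 1.51 (0.918 to 2.59). The stress gene Ddit4 had 134 and 69.0 CPM (ratio 0.517, 0.350 to 0.769), and Tnfaip3, a brake on NF-kappa B, had a ratio of 0.490 (0.270 to 0.904). Beside these values, the 23 markers of the class summed to 1594 CPM (1464 to 1733) in sham and 1269 CPM (1199 to 1342) in stroke, with none at 0, and the 9 interneuron markers to 215 CPM (169 to 270) and 340 CPM (304 to 379). The median share of fragments in peaks was 42.1% and 37.1%, and the part of these shifts was not tested. In myeloid-like nuclei 17 of 70 were higher and 13 lower, against 24.1% and 19.8%, with the 24 sham nuclei behind every ratio. Gsdme was highest there, from 2 sham fragments (ratio 6.32, 1.73 to 52.5), and the DNA repair gene Apex1 followed, from 1 sham fragment (ratio 5.30, 0.928 to 212). Ei24, a p53 target, was lowest at 0.291 (0.140 to 0.679), and Sesn2, another p53 target, had 105 and 35.4 CPM (ratio 0.336, 0.212 to 0.555).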
